A study of Mus musculus with 2 samples.

Results

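The constant chains of antibodies were followed through 2 single-cell libraries of lung leukocytes, as 7 of the 16184 genes in the tables. The genes were chosen by name: Ighm, Ighd and Igha, which encode the heavy chains of IgM, IgD and IgA, Igkc, Iglc2 and Iglc3, which encode kappa and lambda light chains, and Jchain, which encodes the small protein that joins IgM and IgA units into polymers. The DT group received diphtheria toxin, 2 doses of 600 ng per 20 g on days 8 and 9 after injection of HKP1 tumour cells. The PBS group received PBS as the control. Mice of both groups were of the Scgb1a1cre/iDTR genotype, in which Cre driven by Scgb1a1, a gene of airway club cells, switches on a receptor for the toxin, so that the toxin depletes club cells. Both groups also carried tumours from 150000 HKP1 lung cancer cells, and both had tamoxifen at 2 mg per 20 g on 5 days (days 3 to 7), anti-PD-1 antibody at 250 µg on day 6 and lung irradiation of 4 Gy on 3 days (days 10 to 12). Neither group was therefore untreated. Live CD45-positive cells of 4 mice per group were sorted 24 to 48 h after irradiation, and 1 droplet library of transcript 3′ ends was made per group. No label ties a cell to a mouse, so there was no measure of spread between mice and no test between the groups. All intervals are 95% intervals of counting error.

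Each B cell normally makes 1 heavy and 1 light chain. A naive B cell splices a single long transcript into Ighm and Ighd, so that it carries IgM and IgD on its surface. Class switching replaces Ighm by a downstream gene such as Igha or one of the IgG genes, and a plasma cell secretes its antibody in bulk with few other products. B-1 and marginal zone B cells are innate-like B cells known for much IgM and little IgD, while follicular B cells carry much IgD. In mice most B cells use kappa.

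The DT table held 6203 cells and the PBS table held 5702, with medians of 2909 and 3719 unique molecular identifiers (UMIs, counted transcripts) per cell. Of these, 5896 DT cells and 5651 PBS cells passed the filters, and 8 barcodes occurred in both libraries. Among B cells with a sex call from Xist or Y-linked genes, 42.4% were male-called in DT and 82.9% in PBS. For T cells these shares were 17.2% in DT and 89.1% in PBS, and for Csf1r cells 27.3% and 86.1%. Plasmacytoid dendritic cells had 13.5% in DT and 87.0% in PBS, and neutrophils 73% and 97.2%. The 2 libraries thus also differed in the sex of the mice that gave the cells, to a degree that varied by cell type. A further limit concerns zeros. Of the genes in both tables, 430 were at 0 in every DT cell while 9 had a total of 1 UMI in DT, and 601 were at 0 in every PBS cell while 10 had 1 UMI in PBS. A gene at 0 throughout a library may therefore be a gene that was not carried into that table. This touches Ighg1, which is listed at 0 in DT and had 2690 UMIs in PBS, and 13 of 20 V segments in DT and 1 of 20 in PBS. None of the 7 genes was at 0 in either library.

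Cells were sorted into gates by marker transcripts. B cells carried Cd79a, the signalling partner of surface antibody, and no marker of another gate, which gave 1070 DT cells and 1368 PBS cells with median depths of 2426 and 2816 UMIs. T cells carried Cd3e (1013 DT and 1087 PBS cells), neutrophils Csf3r with S100a8 (904 DT and 557 PBS cells), monocytes and macrophages Csf1r (817 DT and 816 PBS cells), and plasmacytoid dendritic cells (pDC) Siglech (48 DT and 71 PBS cells). The second plasma cell marker of the rule, Mzb1, was not used here. Plasma-type cells were called from at least 1 Jchain UMI, no Siglech and at least 10% of UMIs from antibody constant genes. The name of the B gate held against further markers. The summed level of 7 other B cell markers came to 7071 CPM (UMIs of a gene scaled to a common gate total) in DT B cells and 6482 CPM in PBS B cells, against 11.4 to 18.2 CPM in the T, neutrophil and Csf1r gates of DT and 14.2 to 21.4 CPM in those of PBS. In the DT B gate Sftpc, a product of alveolar epithelium, had 3347 UMIs, of which 3335 lay in 1 cell.

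In the GRCm38 genome, the build that mm10 names, the heavy chain genes lie on the minus strand of chromosome 12, Ighm at chr12:113418558-113422730, Ighd at chr12:113406604-113416324 and Igha at chr12:113254830-113260236. Igkc lies on the plus strand at chr6:70726435-70726966 and Jchain on the minus strand at chr5:88519809-88527891. The lambda genes lie on the minus strand of chromosome 16, Iglc2 at chr16:19198396-19200351, Iglc3 at chr16:19065230-19065681 and Iglc1, which is not among the 7, at chr16:19061618-19062071. Iglc2 and Iglc3 are near-copies while Iglc1 is less alike, and the letters below show how alike their coding ends are. They are the last 90 coding bases with the stop codon, 5′ to 3′ on the coding strand, from the GENCODE vM21 transcripts, at chr16:19198536-19198625 for Iglc2, chr16:19065365-19065454 for Iglc3 and chr16:19061752-19061841 for Iglc1. Capitals mark the 27 positions at which the 3 genes are not all alike.
Iglc2: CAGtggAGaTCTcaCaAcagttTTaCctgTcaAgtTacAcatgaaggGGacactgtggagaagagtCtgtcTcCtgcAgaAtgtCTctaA
Iglc3: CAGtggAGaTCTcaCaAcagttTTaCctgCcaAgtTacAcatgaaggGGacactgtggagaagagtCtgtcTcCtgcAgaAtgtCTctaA
Iglc1: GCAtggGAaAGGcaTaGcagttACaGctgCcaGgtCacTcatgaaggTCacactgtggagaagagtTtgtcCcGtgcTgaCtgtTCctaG
Iglc3 differs from Iglc2 at 1 of these bases and Iglc1 at 27. Over the whole coding part Iglc2 and Iglc3 were 96.5% identical, and Iglc2 and Iglc1 were 74.7% identical. In the untranslated 3′ part after the stop codon, which reads of 3′ ends can also cover, the values were 93.3% and 54.9%. How the authors counted reads that fit more than 1 copy is not given in the sources used here, so the split between Iglc2 and Iglc3 is uncertain.

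**Figure D1:**
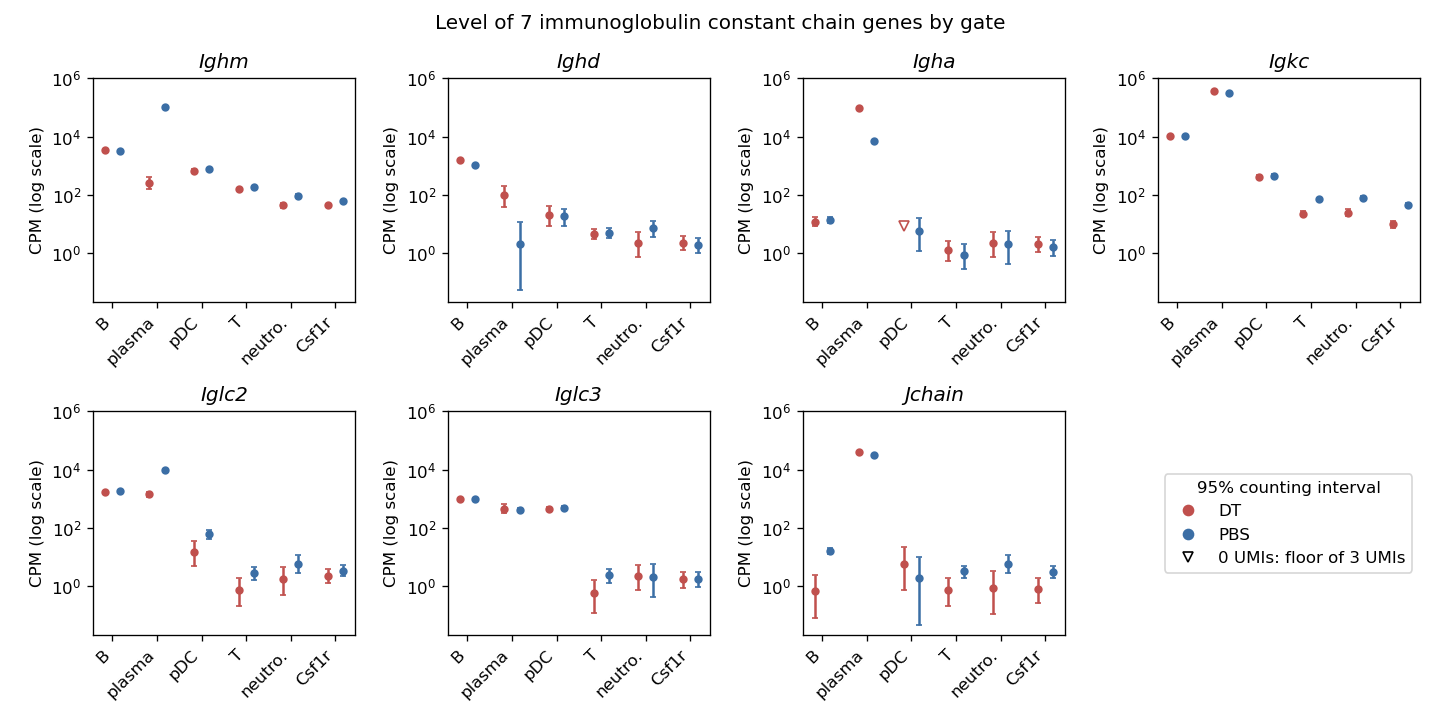
Level of each of the 7 genes in the 6 gates, as CPM of the gate's summed UMIs on a log axis, with DT points left of PBS points and bars for the 95% counting interval; an open triangle is a gate with 0 UMIs, drawn at 3 UMIs. On this wide axis DT and PBS lie close together in B cells for all genes but Jchain, although Ighd is 1.42 times as high in DT. Ighm in plasma-type cells and Igkc in the T, neutrophil and Csf1r gates are lower in DT.

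Plasma-type cells were rarer in DT and carried other heavy chains. They were 4 of 5896 DT cells (0.0678%, interval 0.0185 to 0.174%) and 24 of 5651 PBS cells (0.425%, interval 0.272 to 0.631%), a ratio of 0.160 (interval 0.0403 to 0.465). In DT 3 of the 4 cells carried Igha and 1 carried Ighg2b, an IgG heavy chain, and none was led by Ighm. In PBS 20 of the 24 cells carried Ighm, 2 carried Igha, 1 carried Ighg3 and 1 carried Ighg1. All 4 DT cells were kappa, against 21 kappa and 3 lambda cells in PBS. Leaving out plasma-type cells with markers of the T, neutrophil or Csf1r gates kept 4 cells in DT and 20 in PBS. Whether the PBS cells left out were doublets was not tested. The lowest share of constant chain UMIs inside the class was 27.6% in DT and 14.1% in PBS, and the highest outside it was 8.43% in DT and 7.48% in PBS, leaving out 1 PBS cell at 67.8% that had Siglech. Among sex-called plasma-type cells, 1 of 4 was male-called in DT and 9 of 19 in PBS. The ratio of the shares was 0.304 (interval 0.00694 to 2.20) within male-called cells and 0.0564 (interval 0.00997 to 0.219) within female-called cells. Called from Jchain with Xbp1 and no Siglech, there were 10 cells in DT and 92 in PBS. That call sets no minimum of constant chain UMIs. Of the cells with Jchain outside the plasma-type class, 17 of 18 in DT and 127 of 137 in PBS had a single Jchain UMI. The wider call therefore takes in cells at the level of stray RNA.

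The cells were large and each held nearly a single heavy chain. They had a median of 19448 UMIs in DT and 20167 UMIs in PBS, and constant chains made up 27.6 to 68.9% of a cell's UMIs in DT and 14.1 to 77.9% in PBS. The leading heavy chain took 94.2 to 100% of a cell's heavy chain UMIs in DT and 98.7 to 100% in PBS. The leading light chain took 98.3 to 99.7% of light chain UMIs in DT and 76.8 to 99.9% in PBS, where the lowest shares were in the 2 cells led by Iglc2. The 3 Igha cells of DT had 3998, 2338 and 468 Igha UMIs, and the 2 of PBS had 2053 and 1265. The DT cell with the highest Igha had no Ighm UMI among its 25333 UMIs. Jchain ran from 74 to 1528 UMIs per cell in DT, with a median of 602, and from 1 to 1725 in PBS, with a median of 477. The 2 PBS cells with a single Jchain UMI had 107 and 99 Ighm UMIs and also had 10 and 14 UMIs of Mki67, a gene of dividing cells. UMIs of Mki67 or of Top2a, a further gene of dividing cells, were seen in 2 of 4 DT cells and 14 of 24 PBS cells. Sdc1, the plasma cell surface protein CD138, was seen in 3 of 4 DT cells and 22 of 24 PBS cells.

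**Figure D2:**
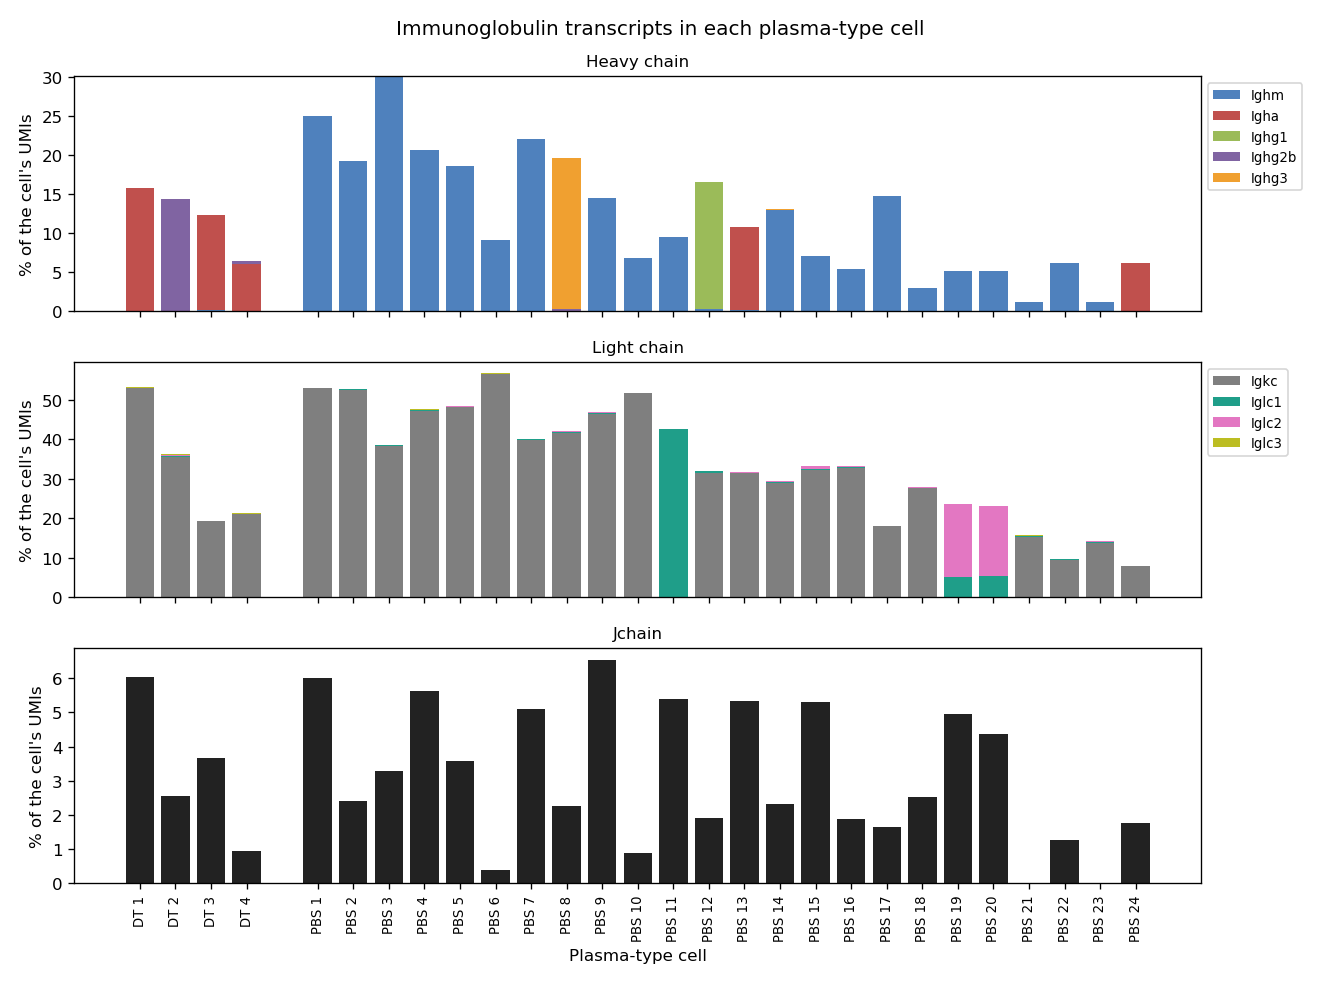
Heavy chain, light chain and Jchain UMIs as a percentage of all UMIs in each of the 4 DT and 24 PBS plasma-type cells, 1 bar per cell. The DT bars are Igha in 3 cells and Ighg2b in 1, while 20 PBS bars are Ighm, and lambda colours lead in 3 PBS cells only.

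The lambda cells of PBS show how UMIs fell among the lambda genes. A cell led by Iglc1 had 7996 Iglc1, 7 Iglc2 and 1 Iglc3 UMIs and no Igkc UMI. The 2 cells led by Iglc2 had 1852 and 2201 Iglc2 UMIs, with 506 and 654 Iglc1 UMIs, 6 and 9 Iglc3 UMIs and 1 Igkc UMI each. In these 2 cells high Iglc2 came with almost no Iglc3, although the sequences above are alike, and with much Iglc1. Lambda-called B cells, described below, had 6357 CPM of Iglc2 beside 1936 CPM of Iglc3 in DT. In PBS they had 7778 CPM of Iglc2 beside 1520 CPM of Iglc3. Kappa cells held few lambda UMIs. The kappa cell with the most Iglc2 was a PBS cell with 191 Iglc2 UMIs beside 7117 Igkc UMIs.

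Of 17 light chain V segments in the tables, Igkv15-103 led in 4 PBS cells with 114, 37, 52 and 42 UMIs. The same 4 cells were Ighm cells that also carried the heavy chain segment Ighv7-1, with 24, 28, 11 and 3 UMIs, and no other plasma-type cell was led by it. Both segments are listed at 0 in the DT table. The leading segment was Igkv9-120, with 80 UMIs, in the DT cell with the most Igha and Igkv6-15, with 39 UMIs, in the DT Ighg2b cell. Iglv1, a lambda segment, led in 2 kappa cells of DT and 10 kappa cells of PBS, in 1 of them with 154 UMIs beside 13139 Igkc UMIs. The segment that leads among these columns is therefore not always one of the light chain class that the cell uses.

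Most of the libraries' Jchain and Igha came from these few cells. Because the cells were called from Jchain and constant chain UMIs, high shares of these genes were partly set by the call. The plasma-type cells held 99.3% of Jchain UMIs in DT and 96.9% in PBS, and 98.7% of Igha UMIs in DT and 96.3% in PBS. For Ighm they held 0.134% in DT and 66.0% in PBS, and for Igkc 42.7% in DT and 68.7% in PBS. Over all cells Igha was accordingly 2.23 times as high in DT as in PBS (interval 2.14 to 2.33). Of the 6896 Igha UMIs of DT, 3998 lay in 1 cell, so the Igha ratio rests largely on that cell. The counting intervals leave out such differences between cells. Ighm was 0.215 times (0.211 to 0.219), Igkc 0.300 times (0.297 to 0.303) and Jchain 0.204 times (0.196 to 0.212) as high in DT. Ighd, the chain of naive B cells, was 0.969 times as high (0.934 to 1.01). Within the plasma-type gate 11% of 846 genes with at least 50 UMIs were at least 1.5-fold higher in DT and 23.5% were lower. Of the 6 members with that many UMIs, Igha was higher at 94522 CPM in DT and 6980 CPM in PBS, and Ighm and Iglc2 were lower. Ighm had 264 CPM in DT and 102453 CPM in PBS. Iglc2 had 1431 CPM in DT and 9896 CPM in PBS, where 4053 of 4710 UMIs lay in 2 lambda cells. Without these 2 cells, a choice made after seeing the data, PBS had 1449 CPM of Iglc2 and the ratio was 0.988 (interval 0.795 to 1.22). Igkc was close at 357515 CPM in DT and 324386 CPM in PBS. Jchain was close too, at 38981 CPM in DT and 31539 CPM in PBS.

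The plasma-type cells of both libraries carried the secretory machinery of antibody-making cells. All 22 genes of a plasma cell secretion list had at least 20 UMIs in the gate, with a summed level of 16671 CPM in DT and 18912 CPM in PBS. By the 1.5-fold rule 2 were higher and 5 lower in DT, and the median log2 ratio was -0.18 with Tnfrsf17 set at the floor of 3 UMIs in DT, beside -0.07 over all genes of the gate. Tnfrsf17, a survival receptor of plasma cells, is listed at 0 throughout the DT table and had 25 UMIs in the PBS gate, and was not counted as lower. Herpud1, of the disposal of misfolded proteins, had 1028 CPM in DT and 637 CPM in PBS. Creld2, a gene of endoplasmic reticulum stress, had 222 CPM in DT and 1193 CPM in PBS, with a ratio of 0.186 (interval 0.106 to 0.305). Xbp1, the transcription factor of the secretory programme, had 5 to 19 UMIs per cell in DT and 5 to 51 in PBS. Of the IgA cell homing list 3 of 6 genes had enough UMIs, and Itga4, an integrin subunit, had 208 CPM in DT and 86.1 CPM in PBS. With 4 DT cells, each of these values rests largely on single cells.

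In B cells, IgD transcripts were higher in DT while IgM and kappa were nearly level. Of 9371 genes with at least 50 UMIs in the B gate, 7.9% were at least 1.5-fold higher in DT and 3.53% lower, and of the 7 members none was higher and 1, Jchain, was lower. Ighd had 1517 CPM in DT and 1065 CPM in PBS, with a ratio of 1.42 (interval 1.37 to 1.48). The ratio was 1.46 among male-called cells and 1.43 among female-called cells. Ighm had 3523 CPM in DT and 3241 CPM in PBS, with a ratio of 1.09 (interval 1.06 to 1.11). That ratio was 1.25 among male-called cells and 0.816 among female-called cells, so its direction turned with sex. It also turned, to 0.9345, when cells with markers of several gates were kept and plasma-type cells left out. Igkc had 10110 CPM in DT and 10263 CPM in PBS, with a ratio of 0.985 (interval 0.971 to 0.999), and 1.11 among male-called and 0.726 among female-called cells. Ighd UMIs per 100 Ighm UMIs were 43.0 in DT and 32.9 in PBS. The median B cell had 8 Ighm and 4 Ighd UMIs in DT and 9 Ighm and 4 Ighd UMIs in PBS.

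Depth had to be matched to compare the share of B cells with Ighd. After thinning each cell to 1000 UMIs, which left out 9 DT and 18 PBS cells, Ighd was detected in 76.2% of B cells in DT (interval 73.6 to 78.8%) and 66.7% in PBS (interval 64.2 to 69.3%). The ratio of these shares was 1.14 (interval 1.04 to 1.26). It was 1.09 (interval 0.895 to 1.32) among male-called cells and 1.28 (interval 0.966 to 1.73) among female-called cells. Thinned to 2000 UMIs it was 1.09 (interval 0.987 to 1.19). The intervals by sex call and at 2000 UMIs held 1. Without thinning the shares were 92.8% in DT and 91.2% in PBS. In T cells, which should lack the gene, the thinned shares were 0.199% in DT and 0.557% in PBS, at median depths of 4282 and 4389 UMIs before thinning. Cells with Ighm and no Ighd after thinning were 20.7% of B cells in DT (interval 18.3 to 23.3%) and 29.0% in PBS (interval 26.6 to 31.5%). Few B cells had switched: cells led by another heavy chain with at least 5 UMIs numbered 3 of 1070 in DT and 9 of 1368 in PBS. Igha had 12.1 CPM in the B gate of DT and 13.7 CPM in that of PBS, and its highest single cell had 13 UMIs in DT and 23 in PBS.

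**Figure D3:**
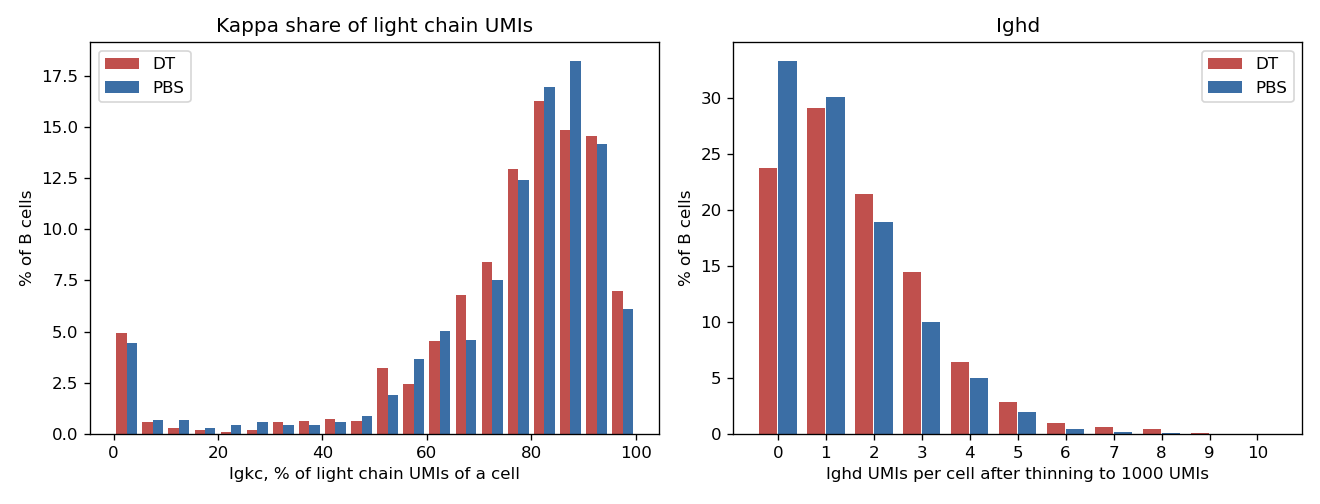
Left, share of B cells by the percentage of their light chain UMIs that are Igkc (cells with at least 5 light chain UMIs). Right, share of B cells by Ighd UMIs after thinning to 1000 UMIs per cell. The kappa histograms of DT and PBS have the same peak near 0 and the same broad peak above 50%, and the Ighd histogram has 23.8% of DT cells and 33.3% of PBS cells at 0.

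B cells with Ighm and no Ighd UMI after thinning to 1000 UMIs, called cells without Ighd below, numbered 220 in DT and 391 in PBS. Before thinning only 60 DT and 106 PBS B cells had Ighm and no Ighd, so most of these cells had Ighd UMIs. In both libraries the cells without Ighd had higher levels of 4 B-1 and marginal zone genes and lower levels of 3 follicular genes. Zbtb32, a transcription factor known from B-1 and memory B cells, had 58.1 CPM in DT cells without Ighd and 7.38 CPM in DT cells with Ighd, a ratio of 7.86 (interval 4.29 to 15.2). In PBS the values were 69.5 and 5.92 CPM, a ratio of 11.7 (interval 6.85 to 21.6). Bhlhe41, a transcription factor needed by B-1a cells, was 3.52 times as high without Ighd in DT (2.44 to 5.12) and 3.66 times in PBS (2.81 to 4.80). Cd9, a surface protein of marginal zone and B-1 cells, was 3.79 times as high in DT (2.71 to 5.31) and 3.04 times in PBS (2.28 to 4.09). Fcrl5, an inhibitory receptor of the same cells, was 1.97 times as high in DT (1.08 to 3.52) and 2.73 times in PBS (1.84 to 4.09). These are 4 of the 6 genes of the B-1 and marginal zone list with at least 20 UMIs in both libraries. For the others, Dtx1 and Cd1d1, the interval held 1 in at least 1 library. On the naive follicular list the order was the other way for 3 of 7 genes. Fcer2a, the IgE receptor CD23 of follicular B cells, was 0.572 times as high without Ighd in DT and 0.415 times in PBS. Cd55 was 0.631 times as high in DT and 0.580 times in PBS. Ccr7 and these 2 had intervals below 1 in both libraries. The split by Ighd is given here for listed genes only. No share over all genes therefore stands beside these counts. The cells without Ighd were deeper, with medians of 2631 and 2377 UMIs without and with Ighd in DT, and 3207 and 2668 in PBS.

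**Figure D4:**
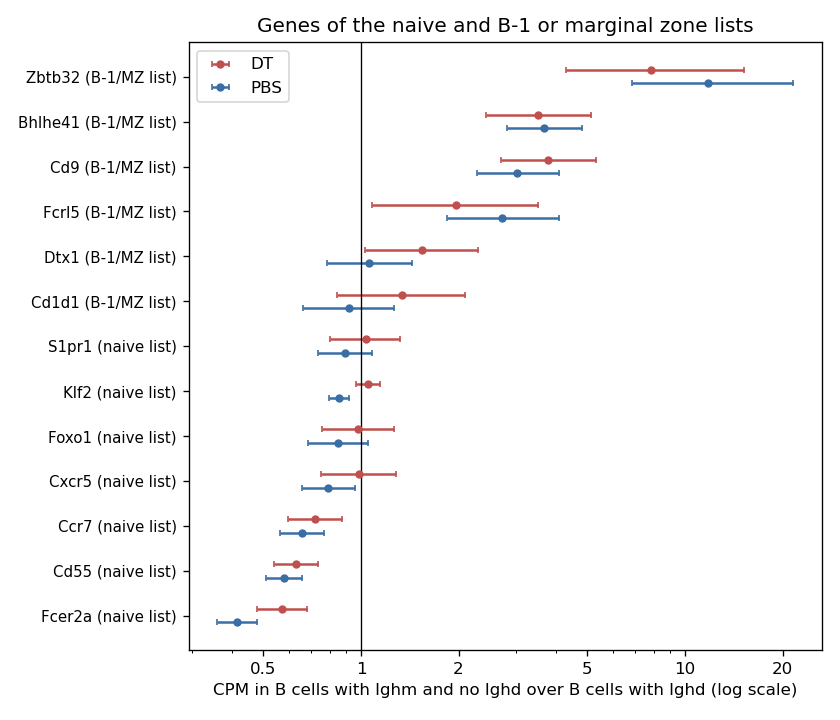
Ratio of CPM between B cells with Ighm but no Ighd and B cells with Ighd, for the 13 genes of the naive follicular and the B-1 or marginal zone (MZ) lists with at least 20 UMIs in both libraries, with 95% counting intervals on a log axis. Zbtb32, Bhlhe41, Cd9 and Fcrl5 lie right of 1, and Ccr7, Cd55 and Fcer2a left of 1, in both DT and PBS.

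In the B gate as a whole the genes higher in cells without Ighd were lower in DT, and those lower in such cells were higher in DT, among the genes named next. Bhlhe41 had 43.7 CPM in DT and 66.2 CPM in PBS, with a ratio of 0.661 (interval 0.537 to 0.810), and Zbtb32 had 19.9 CPM in DT and 29.8 CPM in PBS, with a ratio of 0.668 (0.488 to 0.905). Cd55 had 373 CPM in DT and 250 CPM in PBS, with a ratio of 1.496 (1.38 to 1.62), and Ccr7 had 227 CPM in DT and 166 CPM in PBS. Of the naive follicular list 0 of 7 genes passed 1.5-fold in either direction, and the median log2 ratio was 0.28. Of the B-1 and marginal zone list 1 of 8 genes with enough UMIs was higher and 1 lower, and the median was -0.28. The median over all 9371 genes was 0.07. Of the 15 genes of the B cell receptor list, such as Cd79b and Syk, none passed 1.5-fold, with a median of 0.07. On the class switching list Bcl6, of germinal centre B cells, had 16.6 CPM in DT and 21.3 CPM in PBS. Among antibody receptors Fcmr, the IgM receptor, had 848 CPM in DT and 762 CPM in PBS. Vpreb3, of light chain assembly, had 275 CPM in DT and 269 CPM in PBS.

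Lambda cells made up nearly the same share of B cells in both libraries. Among cells with at least 80% of light chain UMIs from either kappa or lambda, lambda cells were 64 of 621 in DT (10.3%, interval 8.03 to 13.0%) and 86 of 838 in PBS (10.3%, interval 8.29 to 12.5%), a ratio of 1.00 (interval 0.715 to 1.40). The lambda cells were led by Iglc1 in 36, Iglc2 in 23 and Iglc3 in 5 cells of DT, and by Iglc1 in 40, Iglc2 in 41 and Iglc3 in 5 cells of PBS. Both lambda members were also present in most kappa cells. Among kappa-called B cells, Iglc2 was seen in 81.7% in DT and 87.4% in PBS and Iglc3 in 77.6% in DT and 82.2% in PBS, whereas Iglc1 was seen in 22.1% in DT and 28.9% in PBS. Their median count was 2 Iglc2 UMIs against 30 Igkc UMIs in DT, and 2 against 38 in PBS. Of all B cells, 40.7% in DT and 37.9% in PBS had both kappa and lambda UMIs in shares that met neither call. In T cells Iglc2 was seen in 0.395% of cells in DT and 1.20% in PBS. Igkc was seen in 25% of lambda-called cells in DT and 52.3% in PBS.

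Plasmacytoid dendritic cells carried Ighm, Igkc and Iglc3 but little Ighd and Iglc2. Ighm transcripts of unrearranged loci are known in these cells. Ighm had 684 CPM in DT and 760 CPM in PBS, and after thinning was seen in 42.2% of cells in DT and 52.9% in PBS, against 14.7% of T cells in DT and 14.8% in PBS. Igkc had 415 CPM in DT and 458 CPM in PBS, and after thinning was seen in 20% of cells in DT and 23.5% in PBS. Without thinning Igkc was seen in 37.5% of cells in DT and 53.5% in PBS, and Ighm in 91.7% and 91.5%. Iglc3 had 444 CPM in DT and 497 CPM in PBS, while Iglc2 had 14.6 CPM in DT and 60.8 CPM in PBS. The count of Iglc3 per 100 Iglc2 UMIs was 3040 in the DT pDC gate and 818 in the PBS one, against 59.8 and 51.2 in the B gates of DT and PBS. Without thinning Iglc3 was seen in 50% of pDC in DT, and Iglc2 in 1 of 48. Ighd UMIs per 100 Ighm UMIs were 2.99 in DT and 2.42 in PBS, far below the B cell values given above. Of 3026 genes with at least 50 UMIs in this gate 5.72% were at least 1.5-fold higher in DT and 5.82% lower. None of the 3 members with that many UMIs, Ighm, Igkc and Iglc3, was among them.

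Outside the B lineage, kappa transcripts were lower in DT in each of 3 gates. In T cells Igkc had 22.5 CPM in DT and 71.1 CPM in PBS, with a ratio of 0.316 (interval 0.256 to 0.388), and was seen in 7.21% of cells in DT and 26.1% in PBS. In neutrophils it had 24.6 CPM in DT and 77.9 CPM in PBS, with a ratio of 0.315 (interval 0.225 to 0.437). In Csf1r cells it had 9.76 CPM in DT and 45.8 CPM in PBS, with a ratio of 0.213 (interval 0.159 to 0.281). The share of genes at least 1.5-fold lower in DT was 1.65% in T cells, 3.15% in neutrophils and 4.06% in Csf1r cells, and 4.56%, 7.95% and 3.63% were higher. Igkc was lower in all 3 gates, and was the only member past 1.5-fold in T and Csf1r cells among the 3 and 2 members with at least 50 UMIs there. In neutrophils Ighm passed too. The ratio of Igkc stayed below 1 within each sex call in each gate. The ratio was 0.0893 (interval 0.0224 to 0.327) in female-called neutrophils, of which PBS had 5. Allowing markers of several gates in a cell, with plasma-type cells left out, gave 0.553 in neutrophils. B cell markers in T cells summed to 18.2 CPM in DT and 21.4 CPM in PBS, in neutrophils 11.4 CPM in DT and 18.5 CPM in PBS, and in Csf1r cells 12.8 CPM in DT and 14.2 CPM in PBS. Most T cells with Igkc had a single UMI, 51 of 73 in DT and 228 of 284 in PBS. These are levels at which free RNA in the droplets is counted, and the part of free RNA in the difference was not tested.

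The rarer isotypes in these 3 gates together were those that led in plasma-type cells of the same library. Ighg2b, the chain of 1 DT plasma-type cell, had 8 UMIs in the 2734 DT cells of these gates and 0 in the 2460 PBS cells. Ighg3, the chain of 1 PBS plasma-type cell, had 0 UMIs in DT and 35 in PBS, where they lay in 35 cells. Jchain had 11 UMIs in DT and 49 in PBS, with a ratio of 0.228 (interval 0.107 to 0.445). Igha had 25 UMIs in DT and 19 in PBS, with a ratio of 1.34 (interval 0.708 to 2.57). In the plasma-type cells themselves Igha had 6804 UMIs in DT and 3322 in PBS, and Jchain 2806 in DT and 15011 in PBS. Ighg1 is listed at 0 in DT and had 13 UMIs in these PBS cells.

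**Figure D5:**
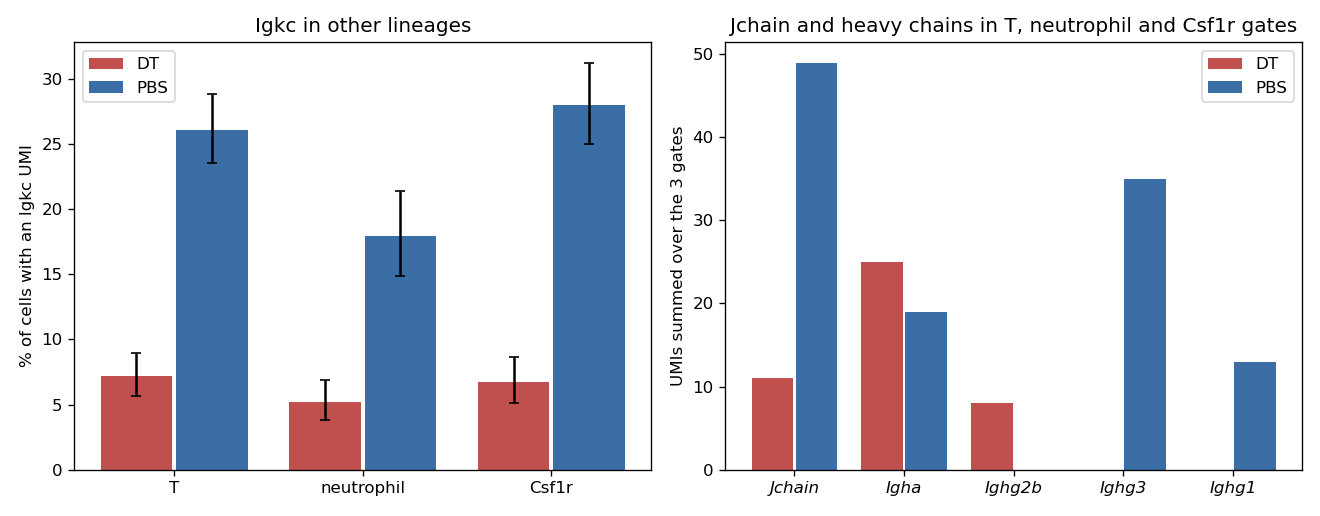
Left, percentage of T cells, neutrophils and Csf1r cells with an Igkc UMI, with 95% counting intervals. Right, UMIs of Jchain and 4 heavy chains summed over those 3 gates (2734 DT and 2460 PBS cells); Ighg1 is listed at 0 throughout the DT library. Igkc, Jchain and Ighg3 are lower in DT, Ighg2b is seen in these gates in DT alone, and Igha is nearly level.

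Outside the B lineage the CPM of Ighm was lower in DT in the same 3 gates. In T cells Ighm had 154 CPM in DT and 183 CPM in PBS, with a ratio of 0.841 (interval 0.767 to 0.921), and was seen in 39.9% of cells in DT and 44.3% in PBS. After thinning the shares were 14.7% in DT and 14.8% in PBS. There were 684 Ighm UMIs per 100 Igkc UMIs in T cells of DT and 257 in those of PBS, against 34.8 in B cells of DT and 31.6 in those of PBS. Transcripts of the unrearranged Ighm locus are known in T cells. In Csf1r cells Ighm had 43.1 CPM in DT and 60.6 CPM in PBS, with a ratio of 0.710 (interval 0.607 to 0.830). In neutrophils it had 43.9 CPM in DT and 93.7 CPM in PBS, with a ratio of 0.468 (interval 0.359 to 0.609). The intervals of the Ighm and Igkc ratios overlapped in neutrophils and did not in T cells and Csf1r cells.

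Among T cells, those with Foxp3, the transcription factor of regulatory T cells, had more Ighm than the rest in both libraries. In DT Ighm had 386 CPM in the 124 T cells with a Foxp3 UMI and 113 CPM in the 889 without, a ratio of 3.43 (interval 2.97 to 3.96). In PBS it had 419 CPM in the 119 T cells with Foxp3 and 148 CPM in the 968 without, a ratio of 2.83 (interval 2.48 to 3.23). After thinning, Ighm was seen in 36.6% of T cells with Foxp3 and 10.3% of those without in DT, and in 37.0% and 13.7% in PBS. The summed B cell markers were 1.101 times as high in cells with Foxp3 in DT (interval 0.601 to 1.90) and 1.35 times in PBS (interval 0.803 to 2.17). Of these markers, Cd79b was 1.13 times as high in DT (0.553 to 2.12) and 1.93 times in PBS (1.03 to 3.41). Ighd was 1.08 times as high in DT (0.268 to 3.19) and 2.15 times in PBS (0.775 to 5.21). The part of B cell RNA in the Ighm difference was not tested. Igkc was 4.25 times as high with Foxp3 in DT (2.91 to 6.19) and 1.88 times in PBS (1.47 to 2.38), at 64.2 CPM with and 15.1 CPM without Foxp3 in DT and 120 CPM with and 63.8 CPM without in PBS. Without Foxp3, Cd4 T cells had 102 CPM of Ighm in DT and 147 CPM in PBS, close to the level of T cells without Foxp3 at large.

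Across the 12 profiles made by 6 gates and 2 libraries, the members fell into patterns that other genes shared. This is a description over profiles that share libraries, with log2(CPM + 1) levels of 12177 genes compared. The plasma-type gate was called from Jchain and constant chain UMIs. Correlations of the members with genes of plasma cells were therefore partly set by the call. Jchain and Igha ran closest to Derl3 (r = 0.98 with Jchain and 0.95 with Igha) and Eaf2 (0.96 and 0.95), of which Derl3 acts in the disposal of misfolded proteins, and to Fkbp11, a chaperone-like protein of secretory cells. Ighd ran closest to Txndc16 (r = 0.97), Pax5, the transcription factor of B cell identity (0.95), and H2-Ob, of antigen presentation in B cells (0.94). Iglc3 ran closest to Ly6d (0.99), Cacna1e and A530030E21Rik, and Ighm to Il5ra (0.89), a receptor of B-1 cells, Iqcb1 and Atat1. Igkc ran closest to Dennd5b, A530040E14Rik and Rasgrp3, and Iglc2 to Rasgrp3, Dennd5b and Gm10553.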

How the data were processed

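Per the labels' protocols, the libraries are 10x Genomics 3′ libraries of sorted CD45-positive cells, and per the submitters' processing notes Partek, Seurat and STAR were used with mm10; versions, settings and the annotation release were not given in the sources used here. Values as deposited are on a log2 scale, log2(CPM + 1) per cell. The log was undone and each cell divided by its smallest step; 100% of values above 0 were whole within 1%, and these UMIs were summed per gate and library as CPM. The plan assumed raw counts and Mzb1.

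Cells with at least 500 UMIs, at least 200 genes and at most 10% mitochondrial UMIs were kept; doublets were removed only through the gates' exclusion of other gates' markers. Members, lists and rules were chosen with earlier results of these data known. Named genes were the members, the other constant genes, gate markers, the 3 genes most correlated with each member, list members with at least 20 UMIs, and the leading V segment of a plasma-type cell. Of the gene lists 2 members are not reported here and were left out of the lists' counts. Genes compared across a gate had at least 50 UMIs. Intervals are exact (Clopper-Pearson for shares, conditional binomial for ratios, Poisson for CPM) and cover counting error only. No test between groups was possible with 1 library each. Floors used 3 counts. Python 3.11.15, NumPy 2.4.6, SciPy 1.17.1 and pandas 2.3.3 were used, tested on simulated data. Alternatives are listed in the closing section.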

Additional observations from a re-analysis of the deposited data

Results flagged for a closer look

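For 3 genes, DT was higher in 1 gate and lower in another, with counting intervals on opposite sides of 1; the difference between the gates was not tested across mice. Ighm was 1.09 times as high in DT B cells as in PBS B cells and 0.00258 times in plasma-type cells, where the 4 DT cells were switched. Among female-called B cells the Ighm ratio was 0.816. The plasma-type values below rest on the same 4 DT cells, and the counting intervals leave out differences between those cells. Igkc was 1.1 times as high in DT plasma-type cells and 0.213 times in Csf1r cells. Jchain was 1.24 times as high in DT plasma-type cells and 0.0411 times in the B gate, where it had 2 UMIs in DT and 80 in PBS, of which 35 lay in 1 PBS cell.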

How the results depend on the processing

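No paired analysis was possible because each group has 1 library. For 10 group comparisons, 99 alternatives were run: 66 stayed within the counting interval given in the report, 29 moved out of it on the same side of 1, and 4 turned the direction. The lambda and plasma-type shares stayed within their intervals under all 9 alternatives each, at ratios of 0.848 to 1.09 and 0.0564 to 0.304. The ratio of plasma-type cells called from Jchain with Xbp1 was chosen after seeing the data. Plasma-type calls without a minimum of constant chain UMIs, that one among them, also took in cells with a single Jchain UMI.

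With male-called cells alone the DT over PBS ratio was 1.25 for Ighm and 1.11 for Igkc in B cells, where Igkc turned, and 0.247 for Igkc in T cells. With female-called cells alone Ighm turned to 0.816 in B cells, Igkc was 0.726 in B cells, 0.0893 in neutrophils and 0.149 in Csf1r cells, and the Ighd-detected share was 1.28. With cells that carry markers of several gates kept, plasma-type cells among them, Ighm turned to 0.339 in B cells, Ighd was 1.57, and Igkc was 0.491 in B cells, 0.0806 in neutrophils and 0.0450 in Csf1r cells. With those cells kept and plasma-type cells left out, an alternative chosen after seeing the data, Ighm turned to 0.9345, Ighd was 1.496, and Igkc was 0.853 in B cells, 0.553 in neutrophils and 0.316 in Csf1r cells.

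Thinned to 1000 UMIs, Ighd was 1.28 and Igkc 0.948 in B cells, and Igkc was 0.254 in T and 0.332 in Csf1r cells. With the mean of each cell's CPM, Ighd was 1.30 and Igkc 0.947 in B cells. From the deposited log2 values Ighm was 1.035 and Igkc 0.835 in B cells, and Igkc was 0.460 in neutrophils and 0.345 in Csf1r cells. Without the 5% deepest cells Ighd was 1.36 and Igkc 0.9575 in B cells, and without the 1% of cells with the most Igkc UMIs the T cell ratio was 0.248. The Ighd-detected share without thinning was 1.02. Iglc2 in plasma-type cells was 0.988 without the 2 PBS cells that it led. The cause was not tested for any of these. The 4 plasma-type cells of DT, the unknown sharing of reads between near-copies and the lack of any spread between mice limit all values above.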
